A study of Mus musculus with 6 samples.

Results

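Retinoic acid is made from vitamin A and acts as a morphogen in the early head. Retinol is first oxidized to retinal, a step that *Rdh10* drives and *Dhrs3*, a retinal reductase, reverses. Retinal is then oxidized to retinoic acid by the retinaldehyde dehydrogenases, among them *Aldh1a2* and *Aldh1a3*. The P450 enzymes *Cyp26a1*, *Cyp26b1* and *Cyp26c1* break retinoic acid down, the binding proteins *Crabp1* and *Crabp2* hold it in the cytoplasm, and nuclear receptors such as *Rarb* carry its signal to target genes. In the mouse embryo, synthesis in trunk mesoderm and breakdown in the anterior head together set the levels that pattern the hindbrain, and *Aldh1a3* is a source near the eye and nose. *Rarb*, *Cyp26a1* and *Dhrs3* are themselves induced by retinoic acid.

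These 9 genes were read in heads of E9.0 mouse embryos as the rows with their symbols among the 24421 gene symbols of the count table, and all 9 were found. The 3 control libraries were labelled wild type for *Snrpb* (WT). The 3 mutant libraries (*Snrpb* ncc+/-, labelled Het) were heterozygous for a *Snrpb* allele with loxP sites that the *Wnt1-Cre2* transgene recombines in cells of the embryonic brain and the neural crest. The rest of the head retains 2 functional copies. Each library was made from 2 pooled heads of somite-matched embryos from different litters on a mixed CD1 and C57BL/6J background, and no embryo was treated. Whether the WT embryos carried the transgene, or an unrecombined loxP allele of *Snrpb*, is not given in the sources used here. *P*-values measure the spread between such pools.

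The libraries held 36378803 to 74909774 counted reads, and a gene's level in each is its count scaled with TMM to library size (CPM). *Snrpb* itself lay between 412.4 and 438.2 CPM in all 6 libraries, so its level did not separate the groups. Per the paper, the recombined allele still yields a shorter transcript. Reads of that transcript can count for the gene, so this level does not measure functional *Snrpb*. By quantitative RT-PCR the paper found less *Snrpb* in younger heterozygous embryos with widespread deletion by another Cre, so stage, tissue and assay differ from those here. The 12 head and brain markers were all detected, and 11 of 14 trunk and tail *Hox* genes stayed under 0.1 CPM in every library. WT replicate 1 stood apart. Its summed heart markers were 15.7 CPM, where the other libraries held 44.9 to 161.0 CPM. Its visceral endoderm gene *Afp* was 5.55 CPM, where the others held at most 0.71 CPM. Of the 8 tested visceral endoderm markers, 7 were highest in WT replicate 1, beside 24.7% of all tested genes, and 1, *Apoe*, was lowest. For genes whose estimate moved strongly without this library, the value without it is also given.

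Promoter sequence is shown for *Rarb* and *Cyp26a1*, the 2 of these genes in which a paired repeat was found. Retinoic acid receptors bind pairs of 6-base repeats in the same direction. Windows from 250 bases before to 50 bases after each start, from RefSeq on GRCm38.p6 (mm10), were searched on both strands for pairs of such repeats with 1, 2 or 5 bases between them. A repeat was read as AGGTCA or as its variant forms AGTTCA and likewise GGGTCA or the doubly changed form GGTTCA. Windows were read for 7 of the 9 genes, all but *Aldh1a3* and *Crabp2*. A pair with 5 bases between (DR5) was found in 32 of all 32851 windows (0.0974%), and *Rarb* and *Cyp26a1* were among them. Pairs with a spacing of 1 or 2 bases were found in 0.222% and 0.268% of all windows and in none of the 7 genes. The pairs are printed here on the strand of the gene, with the repeats in capitals. In *Cyp26a1* they read as AGTTCA on the opposite strand.
*Rarb*, chr14:16575507-16575535, minus strand: gggaagGGTTCAccgaaAGTTCActcgca
*Cyp26a1*, chr19:37697770-37697798, plus strand: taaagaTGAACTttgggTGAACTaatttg
The *Rarb* pair lies from 53 to 37 bases before the start that RefSeq gives, which is an internal start within the longer Gencode gene. The *Cyp26a1* pair lies from 32 to 16 bases before its RefSeq start. A match of letters is a description and does not show that a receptor binds there.

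The central result for expression was that none of the 9 genes passed the threshold between WT and mutant heads. In the quasi-likelihood test of edgeR, 0 of the 9 had a Benjamini-Hochberg adjusted *P* under 0.05, computed over the 15584 genes tested. Of all tested genes 0.00642% (1 gene) passed. With DESeq2, the count among the 9 was also 0, where 0.539% of the genes tested with edgeR passed. At an unadjusted *P* under 0.05, 1 of the 9 was lower in mutants, *Crabp2*, and none was higher. Over all tested genes 8.43% passed that rule, 4.09% as lower and 4.34% as higher. By sign alone, 5 of the 9 were higher and 4 lower in mutants, with a median log2 fold change of 0.11, beside 0.0004 over all tested genes. The median was −0.03 without WT replicate 1. Estimates ran from −0.30 (*Aldh1a3*) to 0.54 (*Cyp26b1*). All 9 genes passed the filter on low counts, with 73 to 34122 counts per gene and library.

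**Figure D1:**
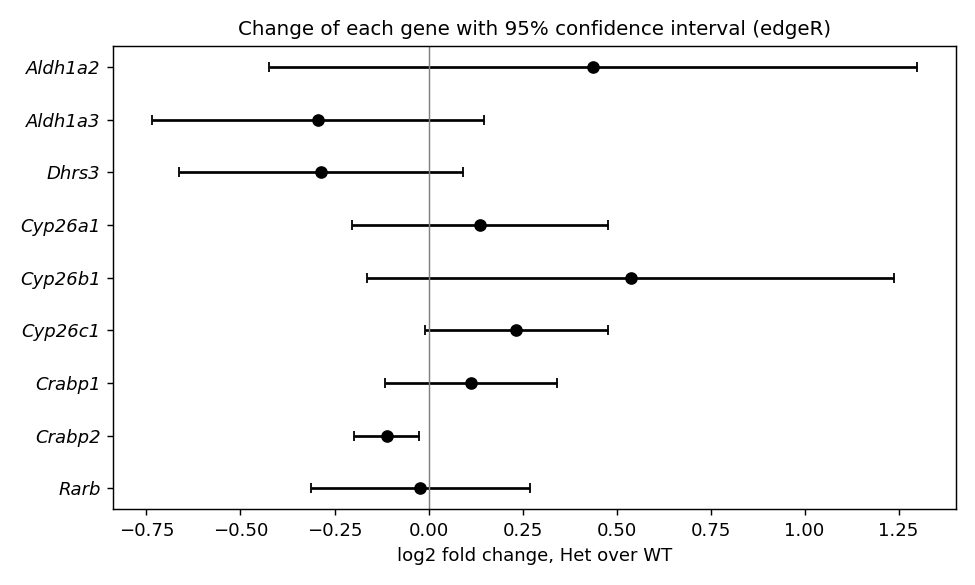
The log2 fold change of mutant (Het) over WT heads for each of the 9 genes, with its 95% confidence interval from edgeR, on a horizontal axis in log2 units. The interval of *Crabp2* (−0.20 to −0.02) is the narrowest and excludes 0, and those of *Aldh1a2* and *Cyp26b1* are the widest.

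Among the enzymes of synthesis, *Aldh1a2* (chromosome 9, 71215789 to 71296243) is the retinaldehyde dehydrogenase of trunk mesoderm. Its level was 6.56, 8.19 and 3.27 CPM in WT replicates 1 to 3 and 10.5, 7.84 and 6.44 CPM in mutant replicates 1 to 3. WT replicate 3 held the lowest value and mutant replicate 1 the highest, and the groups overlapped. The means for WT and mutants were 6.01 ± 2.51 CPM and 8.27 ± 2.08 CPM (SD, *n* = 3 each). The log2 fold change was 0.44 (standard error, SE, 0.35, edgeR adjusted *P* = 0.774), and its 95% interval from −0.42 to 1.30 covers both a fall and a rise. It was 0.15 without WT replicate 3, 0.24 without mutant replicate 1 and 0.74 without WT replicate 2.

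*Aldh1a3* (chromosome 7, 66390890 to 66427517), the enzyme of the eye and nasal region, went the other way in sign. The WT replicates held 43.5, 31.0 and 48.0 CPM, and the mutant replicates 28.3, 36.1 and 34.8 CPM. WT replicate 2 lay among the mutant values, while the other WT libraries were above them all. The means were 40.8 ± 8.81 CPM and 33.1 ± 4.16 CPM (SD, *n* = 3 each), with a log2 fold change of −0.30 (SE 0.18, edgeR adjusted *P* = 0.697). Without WT replicate 2 it was −0.46 and without WT replicate 3 it was −0.16, with adjusted *P* of 0.278 and 0.873. In the same libraries the 9 genes listed as markers of eye and nasal surface ectoderm summed to 355.3 to 361.2 CPM in WT and 345.2 to 354.2 CPM in mutants. Most of each sum was *Sox2* (144.3 to 169.5 CPM) and *Pax6* (62.1 to 74.9 CPM), while *Foxe3* was at most 0.32 CPM and *Pitx3* at most 0.11 CPM. The sums therefore say little about the rest of the list. None of the 8 tested genes of the list was at an unadjusted *P* under 0.05 (edgeR). The part of these tissues in the *Aldh1a3* values was not tested.

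*Dhrs3* (chromosome 4, 144892827 to 144928209), which returns retinal to retinol, was the lowest gene of the 9. It was 2.88, 2.55 and 2.76 CPM in WT and 1.73, 2.43 and 2.48 CPM in mutants. Every mutant library lay below every WT library, but mutant replicates 2 and 3 came close to WT replicate 2. The log2 fold change was −0.29 (SE 0.17, edgeR adjusted *P* = 0.675) and was −0.15 without mutant replicate 1.

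The enzymes of breakdown all had estimates above 0. *Cyp26a1* and *Cyp26c1* are neighbours on the plus strand of chromosome 19, 4399 bases apart, and *Cyp26b1* lies on chromosome 6 (84571414 to 84593908). *Cyp26c1* (37685581 to 37693398), which is expressed in the anterior hindbrain and head mesenchyme, was 40.9, 50.2 and 48.1 CPM in WT and 62.3, 51.0 and 50.8 CPM in mutants. All mutant libraries lay above all WT libraries, 2 of them by less than 1 CPM over WT replicate 2. The means were 46.4 ± 4.89 CPM and 54.7 ± 6.59 CPM (SD, *n* = 3 each). The log2 fold change was 0.23 (SE 0.10, edgeR adjusted *P* = 0.603), 0.15 without WT replicate 1 and 0.13 without mutant replicate 1.

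*Cyp26b1*, the breakdown enzyme known from rhombomeres, had the largest estimate of the 9 genes. Its level was 8.90, 13.2 and 19.4 CPM in WT and 19.3, 17.9 and 22.9 CPM in mutants. WT replicate 1 was the lowest library, and WT replicate 3 lay within the mutant range. The means were 13.8 ± 5.25 CPM and 20.04 ± 2.57 CPM (SD, *n* = 3 each), and the log2 fold change was 0.54 (SE 0.28, edgeR adjusted *P* = 0.669). It was 0.31 without WT replicate 1 and 0.845 without WT replicate 3, so single WT pools moved it more than any other choice. The adjusted *P* was 0.665 and 0.703 in those fits.

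*Cyp26a1* (37697798 to 37701536), the enzyme that retinoic acid itself induces, was 6.59, 10.03 and 9.62 CPM in WT and 9.99, 9.04 and 9.97 CPM in mutants. Apart from WT replicate 1, all libraries lay between 9.04 and 10.03 CPM. Its log2 fold change was 0.14 (SE 0.15, edgeR adjusted *P* = 0.844) and was −0.03 without WT replicate 1 and 0.25 without WT replicate 2.

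**Figure D2:**
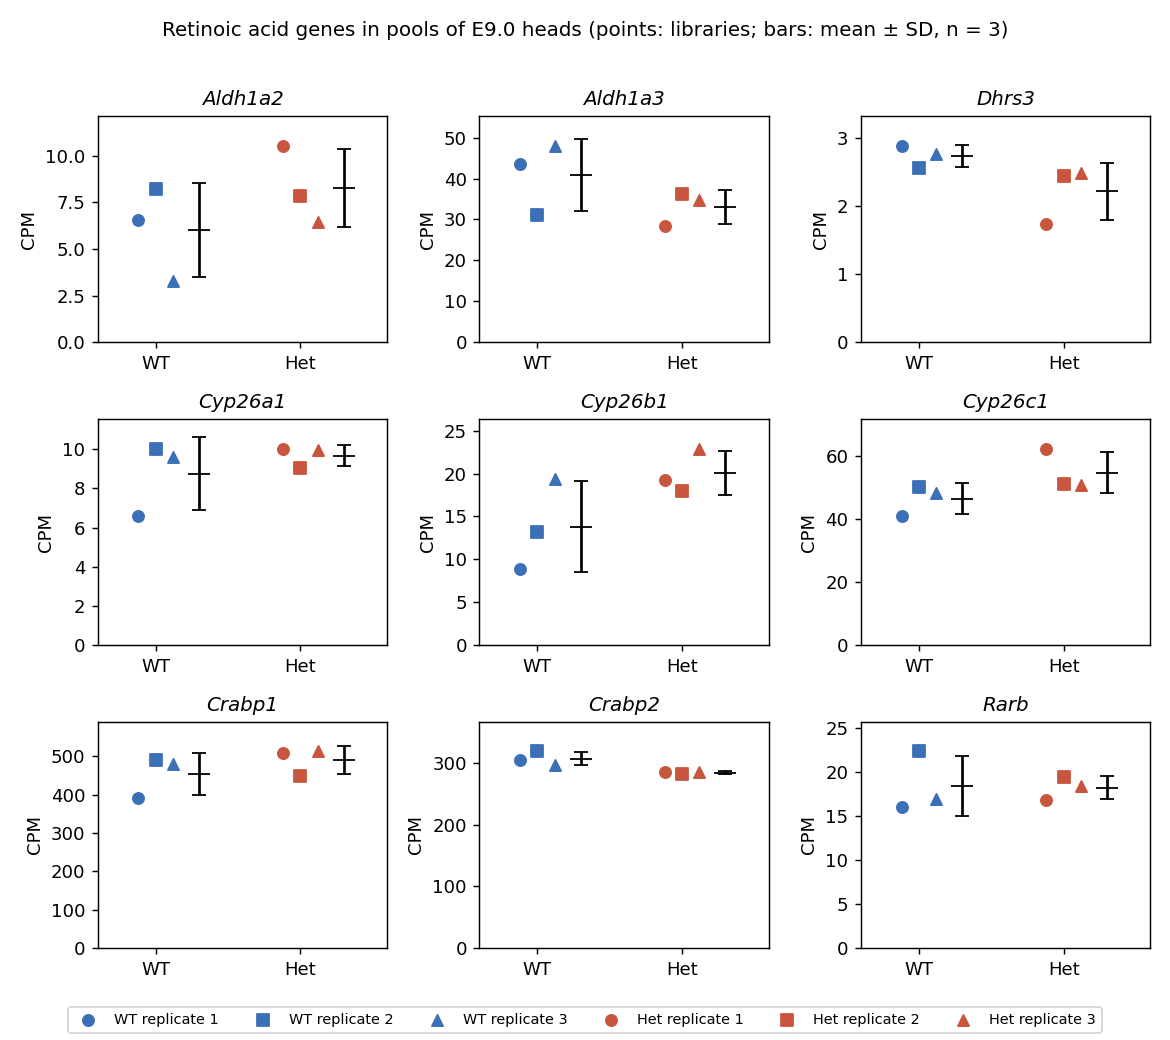
Level of each of the 9 genes in CPM, from 0, in 3 WT and 3 mutant (Het) libraries, with 1 panel per gene; each point is 1 library of 2 pooled heads, its shape gives the replicate, and the bar gives the mean ± SD. The groups do not overlap in *Dhrs3*, *Cyp26c1* and *Crabp2*, and WT replicate 1 is the lowest point of *Cyp26a1*, *Cyp26b1*, *Cyp26c1*, *Crabp1* and *Rarb*.

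The binding proteins were the most abundant of the 9. *Crabp2* (chromosome 3, 87948666 to 87953376), which delivers retinoic acid to its receptors, was 304.4, 318.5 and 297.1 CPM in WT and 284.7, 281.2 and 285.8 CPM in mutants. Every mutant library lay below every WT library, and the mutant libraries differed from each other by less than 5 CPM. The means were 306.6 ± 10.9 CPM and 283.9 ± 2.42 CPM (SD, *n* = 3 each). The log2 fold change was −0.11 (SE 0.04, edgeR unadjusted *P* = 0.0177, adjusted *P* = 0.478), which is 0.926 times the WT level with a 95% interval from 0.871 to 0.983. The unadjusted *P* ranked it 574th of the 15584 genes. Leaving out any 1 library kept the log2 fold change between −0.13 and −0.08 and the adjusted *P* at 0.402 or more.

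*Crabp1* (chromosome 9, 54764748 to 54773110), a binding protein of neural crest cells and hindbrain neuroepithelium, was 390.3, 489.1 and 480.0 CPM in WT and 508.6, 448.9 and 512.5 CPM in mutants. The groups overlapped, with WT replicate 1 the lowest. The means were 453.1 ± 54.6 CPM and 490.0 ± 35.7 CPM (SD, *n* = 3 each), the log2 fold change was 0.11 (SE 0.10, edgeR adjusted *P* = 0.790), and it was 0.01 without WT replicate 1 and 0.17 without WT replicate 2. The 10 neural crest markers, among them *Sox10* and *Foxd3*, summed to 308.1 to 395.0 CPM in WT and 343.8 to 374.4 CPM in mutants. Most of each sum was *Ets1* (115.7 to 158.1 CPM) and *Twist1* (63.9 to 83.3 CPM), so the sums say little about the rest of the list. None of the 10 passed an adjusted *P* of 0.05 (edgeR). By sign 8 of them were higher and 2 lower in mutants, with a median log2 fold change of 0.07. The lowest *P* was that of *Ednrb*, an endothelin receptor of neural crest cells named after its value was seen and 1 of the 2 with a lower level, with a log2 fold change of −0.20 (SE 0.07, edgeR adjusted *P* = 0.4999). In a bulk head, fewer cells of a type and less RNA per cell cannot be told apart.

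The receptor *Rarb* (chromosome 14, 16430839 to 16819156), whose promoter holds the pair of repeats shown above, had the estimate closest to 0. It was 16.0, 22.3 and 16.9 CPM in WT and 16.9, 19.4 and 18.4 CPM in mutants, so that the mutant values lay within the WT range. The means were 18.4 ± 3.42 CPM and 18.2 ± 1.28 CPM (SD, *n* = 3 each), and the log2 fold change was −0.02 (SE 0.13, edgeR adjusted *P* = 0.979). Its 95% interval, −0.31 to 0.27, corresponds to 0.805 to 1.21 times the WT level. The sign of the estimate depended on the pools, with −0.12 without WT replicate 1 and 0.15 without WT replicate 2. The 3′ end of *Rarb* overlaps *Top2b* on the opposite strand, which was 388.4 ± 35.4 CPM in WT. Whether reads were counted by strand is not given in the sources used here, and the part of *Top2b* reads in the *Rarb* count was not tested.

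Groups did not overlap in 3 of the 9 genes, higher in mutants in 1 (*Cyp26c1*) and lower in 2 (*Crabp2* and *Dhrs3*). Over all tested genes the groups did not overlap in 8.32% in the higher direction and in 6.92% in the lower.

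Levels of different genes were set side by side per kilobase of exons, with lengths from Gencode M21. In WT heads the order ran from *Crabp1* (565.0 ± 68.1 CPM per kilobase), *Crabp2* (232.0 ± 8.24), *Cyp26c1* (26.6 ± 2.80) and *Aldh1a3* (8.85 ± 1.91) to *Cyp26a1* (4.41 ± 0.95), *Rarb* (3.50 ± 0.65), *Aldh1a2* (2.65 ± 1.11), *Cyp26b1* (2.58 ± 0.98) and *Dhrs3* (0.93 ± 0.06; SD, *n* = 3). The ranges over the 6 libraries did not overlap between neighbours among the first 5 genes, nor between *Cyp26b1* and *Dhrs3*. *Cyp26a1*, *Rarb*, *Aldh1a2* and *Cyp26b1* overlapped with their neighbours, and their order was not separated by the spread. In mutants the order of the last 3 of these was *Cyp26b1*, *Aldh1a2* and *Rarb*. With the longest transcript as length, 5 of the 9 genes kept their place, and the 4 that moved were those whose ranges overlapped.

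**Figure D3:**
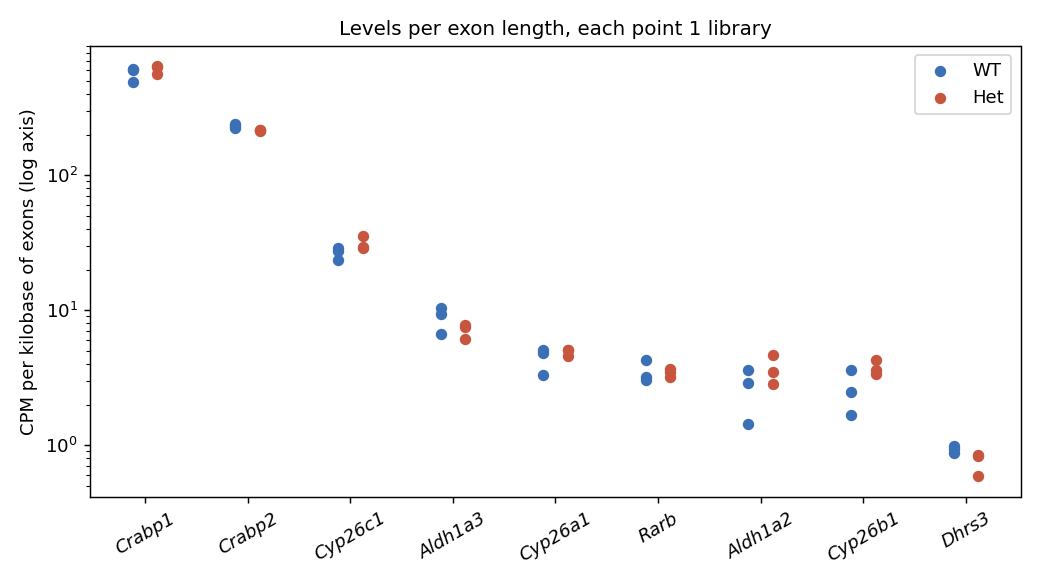
Level of each of the 9 genes in CPM per kilobase of exons on a log axis, ordered by the WT mean; each point is 1 library, WT on the left and mutant (Het) on the right of each gene. *Crabp1* and *Crabp2* are the 2 highest genes in every library, and *Dhrs3* lies below 1.

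Shares within families were computed from the levels per kilobase of exons and depend on that length. With the longest transcript as length, the WT mean of *Crabp2* was 329.4 in place of 232.0 CPM per kilobase, while *Crabp1* stayed at 565.0. Shares were not computed with that length. *Cyp26c1* made up 79.4 ± 2.98% of the summed *Cyp26* level per kilobase in WT and 78.3 ± 2.40% in mutants, and *Cyp26b1* 7.56 ± 2.19% and 9.43 ± 1.55% (SD, *n* = 3 each). Of the *Crabp* level, *Crabp1* held 70.8 ± 2.54% in WT and 73.9 ± 1.28% in mutants. Of the *Aldh1a* level, with *Aldh1a1* included, *Aldh1a3* held 74.8 ± 11.2% and 64.8 ± 8.30%, *Aldh1a2* 23.1 ± 11.2% and 33.0 ± 8.01%, and *Aldh1a1* 2.07 ± 0.13% and 2.22 ± 0.45%. In single pools the *Aldh1a2* share ran from 11.9% in WT replicate 3 to 42.1% in mutant replicate 1, and the *Aldh1a3* share from 86.0% to 55.5% in the same pools. Among the 3 retinoic acid receptors, *Rarb* was the least abundant, with 20.2 ± 2.53% in WT and 20.1 ± 1.21% in mutants, after *Rara* (44.8% and 47.6%) and *Rarg* (35.05% and 32.4%). The summed level of *Aldh1a2* and *Aldh1a3* divided by that of the *Cyp26* genes was 0.434, 0.285 and 0.329 in WT and 0.244, 0.304 and 0.270 in mutants. The WT pools spanned more than the mutant pools, and the groups overlapped.

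The spread between pools differed widely among the 9 genes. Over the 6 libraries, the SD of log2 CPM was 0.57 in *Aldh1a2* and 0.50 in *Cyp26b1*, and 1.14% and 1.56% of the 13139 tested genes with a mean of at least 1 CPM had a larger one. In *Crabp2* the SD was 0.07, and 66.6% had a larger one. The coefficient of variation was larger in WT than in mutants in 7 of the 9 genes, and in 64.3% of all tested genes. WT replicate 1 was the lowest library in 5 of the 9 genes, and in 24.6% of all tested genes.

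In WT replicate 1, genes of the hindbrain were low together with the *Cyp26* genes and *Crabp1*. Of 22 tested response genes of retinoic acid, 15 were lowest in this library. *Hoxb2* was 5.00 CPM there and 10.2 to 14.5 CPM elsewhere, *Hoxb3* was 3.19 CPM and 6.92 to 11.2 CPM, and *Egr2*, a gene of rhombomeres 3 and 5, was 4.61 CPM and 9.22 to 15.7 CPM. Some forebrain and midbrain genes were high in the same library. Of the 12 head and brain markers, 8 were highest there, beside 24.7% of all tested genes, and 2 were lowest there (*Egr2* and *Gbx2*). *Lhx2* was 48.8 CPM in WT replicate 1 and 30.4 to 38.1 CPM elsewhere, and *En2* was 48.4 CPM and 25.9 to 34.7 CPM. *Hesx1* and *En1* were not at their highest in WT replicate 1 (5.55 and 27.4 CPM) but in mutant replicate 1 (7.53 and 29.0 CPM). These genes were picked after their values were seen. In WT replicate 2, the somite gene *Meox1* (9.78 CPM against 1.35 to 5.55 CPM elsewhere) was at its highest, as was *Rarb*. The 12 paraxial mesoderm and somite markers summed to 48.8 CPM in this library and to 37.4 to 45.1 CPM in the others. Most of each sum was *Pax3*, with 32.0 CPM in this library and 27.5 to 39.3 CPM in the others, highest in WT replicate 1. The sums therefore say little about the rest of the list. *Aldh1a2* was highest in mutant replicate 1, where *Meox1* was 2.77 CPM and the 12 markers summed to 40.9 CPM, of which *Pax3* was 32.7 CPM. Whether the extent of tissue in each pool set these values was not tested.

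**Figure D4:**
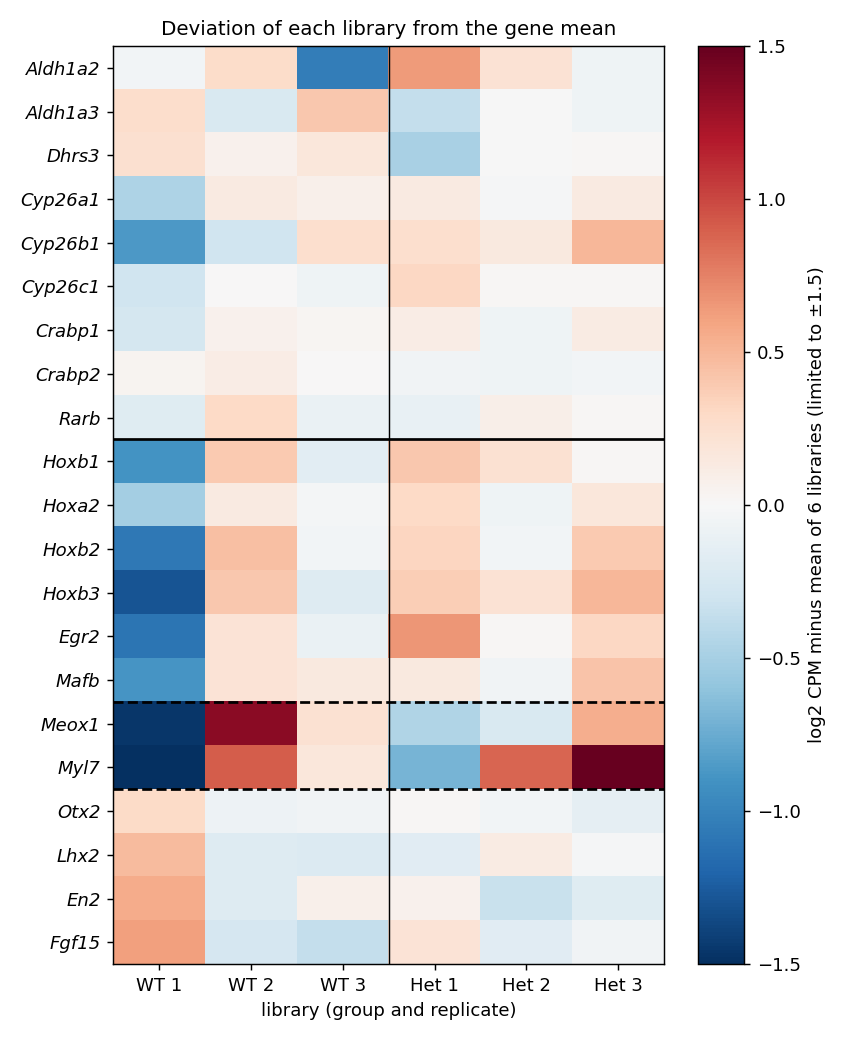
Deviation of each library from the gene's mean log2 CPM (colour, limited to ±1.5; a pseudocount of 0.05 CPM was added), for the 9 genes at the top, then hindbrain genes, then *Meox1* and *Myl7*, then forebrain and midbrain genes; columns are WT and mutant (Het) replicates. WT replicate 1 is low in the hindbrain genes, in all 3 *Cyp26* genes and in *Crabp1*, and high in *Lhx2*, *En2* and *Fgf15*.

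The tested genes whose profile over the 6 libraries was most like those of the 3 most variable members were found by the mean absolute difference of centred log2 CPM. For *Aldh1a2* these were *Cd74* (0.07), *Mnx1* (0.09) and *Crybb3* (0.11), none above 1.16 CPM in any library. For *Cyp26b1* they were *4833422C13Rik* (0.05), *Spink2* (0.08) and *Msc* (0.08). Levels were low here too, with *4833422C13Rik* at most 0.30 CPM and *Spink2* at most 0.63 CPM in any library. For *Aldh1a3* they were *Cux2* (0.04), *Cenpv* (0.05) and *Cp* (0.05). *Msc*, a gene of branchial muscle precursors, was 0.63, 0.94 and 1.30 CPM in WT and 1.59, 1.33 and 1.504 CPM in mutants, and so was lowest in WT replicate 1, as *Cyp26b1* was. Among the members themselves the closest profiles were those of *Cyp26a1* and *Crabp1*, with a mean absolute difference of 0.07.

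Other genes of the pathway were read in the same fit. Of 70 listed genes, 69 were in the table and 54 were tested. None passed an adjusted *P* of 0.05 with edgeR or DESeq2. At an unadjusted *P* under 0.05 with edgeR, 1 was higher and none was lower, beside 4.34% and 4.09% of all tested genes. With DESeq2 the genes under that threshold were others, *Tbx1* (log2 fold change 0.42) and, with lower levels, *Tshz1* (−0.28) and *Stra6* (−0.33). The share of all genes under it with DESeq2 was not computed, so this count has no background beside it. Over the 54 tested genes the median log2 fold change was −0.03 with edgeR. The 1 gene with edgeR was *Dgat1*, an acyltransferase that can esterify retinol. It was 26.0, 24.7 and 22.9 CPM in WT and 26.8, 27.8 and 26.9 CPM in mutants, with a log2 fold change of 0.15 (SE 0.06, edgeR adjusted *P* = 0.551).

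In the supply of retinol, 6 of 8 listed genes were tested, with signs split 3 and 3. *Stra6*, the membrane receptor for retinol-binding protein, was 11.3 ± 2.77 CPM in WT heads and 9.01 ± 0.65 CPM in mutant heads (log2 fold change −0.32), and the change was −0.13 without WT replicate 1 and −0.47 without WT replicate 3. *Rbp4* was 1.86 ± 0.82 CPM and 1.63 ± 0.09 CPM, with its highest value, 2.80 CPM, in WT replicate 1. The log2 fold change of *Rbp4* was −0.17 and turned to 0.235 without that library. The visceral endoderm markers, a list that holds *Rbp4*, also had their highest sum there (108.0 CPM). Most of that sum was *Apoe* (71.6 CPM), which was at its lowest in WT replicate 1. Of the 8 tested genes of the list, 7 were highest there, beside 24.7% of all tested genes. The part of this tissue in the *Rbp4* values was not tested. The adjusted *P* was 0.643 for *Stra6* and 0.893 for *Rbp4* (edgeR).

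Of 18 oxidoreductases, 12 were tested and 7 of these were lower by sign. *Rdh10*, which makes retinal for the embryo, had means of 21.2 ± 2.53 CPM and 20.3 ± 1.10 CPM in WT and mutants, with a log2 fold change of −0.07 (SE 0.09, edgeR adjusted *P* = 0.871). It was −0.16 without WT replicate 1 and 0.02 without WT replicate 2. *Aldh1a1* was 1.20 ± 0.18 CPM and 1.22 ± 0.29 CPM (log2 fold change 0.03). All 14 receptors and partners were tested, 4 higher and 10 lower by sign, with log2 fold changes from −0.15 to 0.18. *Rara* was 33.8 ± 2.41 and 35.8 ± 1.42 CPM, *Rarg* 25.7 ± 1.04 and 23.8 ± 1.42 CPM, and *Rxra* 89.5 ± 3.82 and 88.8 ± 3.74 CPM in WT and mutants (SD, *n* = 3 each). The mutant libraries all lay below the WT libraries in *Rarg*, but mutant replicate 3 (24.9 CPM) came close to WT replicate 3 (25.1 CPM). The log2 fold change of *Rarg* was −0.11 (SE 0.06, edgeR adjusted *P* = 0.676). Of the 54 other pathway genes tested, the groups did not overlap in 2 as higher and in 2 as lower. The shares over all tested genes were 8.32% and 6.92%.

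Of 30 response genes, 22 were tested, 12 higher and 10 lower by sign, with a median of 0.01. *Hoxb1*, which retinoic acid induces in the hindbrain, was 1.65, 4.09 and 2.78 CPM in WT and 4.14, 3.66 and 3.16 CPM in mutants (log2 fold change 0.33, SE 0.30, edgeR adjusted *P* = 0.795). The estimate was 0.06 without WT replicate 1 and 0.71 without WT replicate 2.

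**Figure D5:**
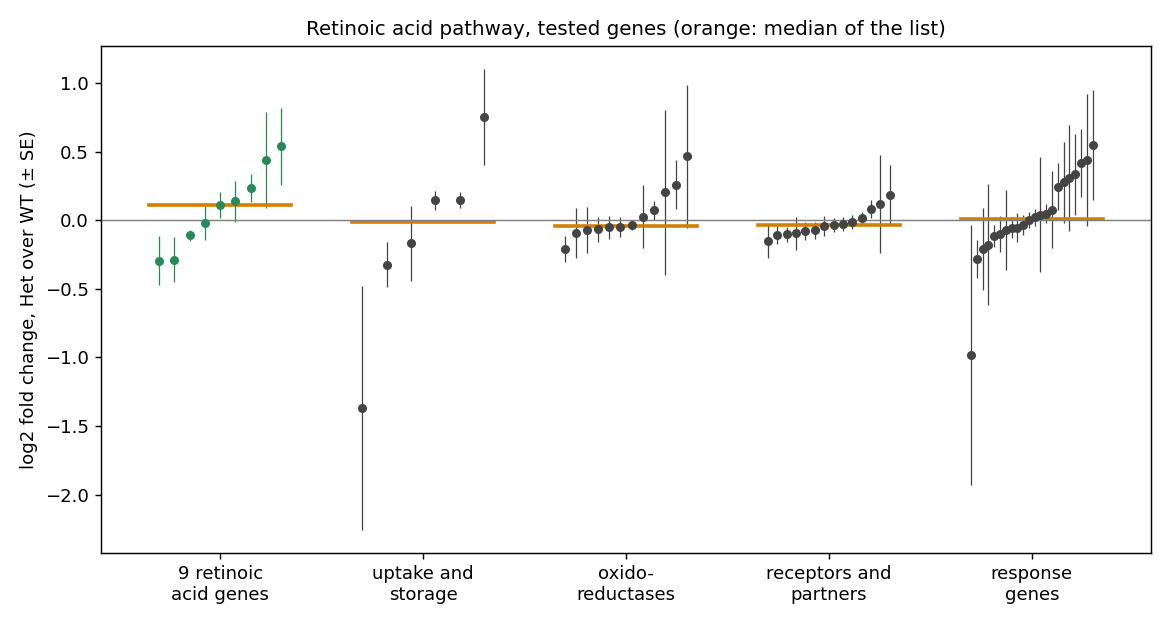
Log2 fold change of mutant over WT heads with its standard error for the tested genes among the 9 members and in the 4 lists of other pathway genes, in rising order within each list; the orange line is the median. The medians of the 4 lists lie between −0.04 and 0.01, beside 0.11 for the 9 members.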

How the data were processed

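RNA of whole heads was sequenced from 3 WT and 3 *Snrpb* ncc+/- pools. Per the paper's methods, the authors made ribosome-depleted stranded libraries, mapped paired reads to mm10 with STAR, took Gencode M2 as annotation and counted with htseq-count. The labels list featureCounts instead. The deposited values are whole-number counts for each gene symbol, which were not normalized. All 6 columns were used, and groups were taken from the sample titles.

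Of 24421 genes, edgeR's filterByExpr kept 15584. The test was that of edgeR 4.0.16 in R 4.3.3, with TMM scaling, robust quasi-likelihood dispersions, no covariates, two-sided, Benjamini-Hochberg over all tested genes, threshold 0.05. Standard errors and 95% intervals are on the log2 scale. The common biological coefficient of variation was 0.0871. Counting error alone was 0.541% to 9.09% of a library's count for 8 of the members and 7.35% to 11.7% for *Dhrs3*, so depth also limits the low genes. Replicates of a group differed by more than sampling noise, with a chi-square of 13.25 to 24.1 for each degree of freedom. The script was tested on simulated counts. Alternatives were DESeq2 (version 1.42.0), other scalings and filters, the replicate number as a block, and each library left out. Leaving libraries out for the other pathway genes was added after seeing the data.

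Named were the 9 genes, 10 fixed pathway genes (2 are not reported here), pathway genes with an unadjusted *P* under 0.05, and the 3 nearest profiles for each of the 3 most variable members. Hindbrain, forebrain, somite and marker genes given with values, *Top2b*, and the genes named from DESeq2 fall outside this rule and were chosen after their values were seen. Exon lengths and coordinates come from Gencode M21 (mm10). The members and gene lists were chosen with earlier results of these data known. Figures were drawn with matplotlib (version 3.10.9).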

Additional observations from a re-analysis of the deposited data

How the results depend on the processing

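The count of 0 among the 9 genes, and of 0 among the other pathway genes, was the same under all 12 alternatives. The number of all tested genes past the threshold was 1, but 84 with DESeq2, 11 without a filter, and 0 to 6 when 1 library was left out (6 without WT replicate 1, 5 without mutant replicate 1, 0 without any of the other 4). The replicate numbers were not used to pair the samples in the main fit. They come from the sample titles, and the deposited count table numbers its mutant columns otherwise. Deviations from the group means correlated at 0.169, 0.0317 and 0.36 between same-numbered libraries and at −0.245 to 0.0875 between the others. WT replicates 1 and 3 correlated best with their own number, and WT replicate 2 was near a tie (0.0386 with mutant replicate 1). Whether the numbers mark pairs is not settled by these values. The replicate block gave a median of 0.12 for the 9 genes and 1 call over all genes. With it the log2 fold change was 0.58 for *Cyp26b1* (edgeR unadjusted *P* = 0.0259, adjusted *P* = 0.508) and 0.50 for *Aldh1a2* (edgeR unadjusted *P* = 0.0549, adjusted *P* = 0.600). Across leave-one-out fits the median log2 fold change of the 9 genes ran from −0.031 (without WT replicate 1) to 0.17. *Cyp26a1* ran from −0.031 (without WT replicate 1) to 0.25, and *Rarb* from −0.12 to 0.15, with a reversed sign without WT replicate 2 (0.15) and without mutant replicate 1 (0.03). The other 7 genes kept their sign in all 12 alternatives. At an unadjusted *P* under 0.05, 1 of the 9 was found, 2 with library size only or the replicate block, 3 with DESeq2 (*Aldh1a3*, *Cyp26c1* and *Crabp2*) and 1 to 2 when 1 library was left out. The share of all genes under that threshold was computed only for the main edgeR fit (8.43%), so the counts from the alternatives have no background beside them. With the longest transcript as length, 5 of the 9 genes kept their place in the order of levels. With 3 pools a group, intervals of *Aldh1a2* and *Cyp26b1* allow changes of more than 2-fold.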
